A study of Mus musculus with 8 samples.

Results

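Kupffer cells and other macrophages of mouse liver are described here through 40 genes that mark them. They comprise 10 resident Kupffer genes, 23 pan-macrophage genes and 7 genes more often used for monocytes, out of 20284 genes with a named probe on the arrays. The members were selected on values of these same arrays, in which macrophage genes had been found higher in adult knockout than in adult wild-type liver. That comparison, and both comparisons of adult with fetal liver, which reuse its arrays, are therefore given as description, and no gene's p-value is printed for them. The fetal knockout comparison shares no array with the adult one, and its adjusted p-values are printed. All 8 arrays still share 1 estimate of array error per gene, so these p-values are not fully separate from the adult arrays. A named probe was found for 39 members; Cd68 was not analysed here. All 39 passed the filter on dim probes, and 31 were well above background on all 8 arrays. A member could pass through 1 bright group alone, so a count over the 39 does not by itself show a change.

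Liver RNA was taken from C57BL/6J mice, either wild type or lacking Btg2 (also named TIS21 or PC3), a gene of the BTG/TOB family that restrains cell growth. Crossing the 2 genotypes with the 2 stages, adult and fetal, gave 4 groups. Both adult groups were males aged 10 weeks and had been fasted for 20 h, so no fed liver entered any comparison. Both fetal groups were pools of the livers of more than 3 fetuses of 1 womb at embryonic day 13.5, of wild-type or knockout genotype. Each group was 1 RNA sample measured on 2 arrays as a technical duplicate. Standard errors (SE) and p-values therefore cover array error and compare 4 RNA samples, not genotypes. The number of adult mice behind each sample and the part of Btg2 that was removed are not given in the sources used here. In whole liver, more cells of a type and more RNA per cell cannot be told apart.

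Kupffer cells are the macrophages that live inside the blood sinusoids of the liver. They take up particles, dying cells and worn red cells from the blood and recycle the haem and iron. Most arise before birth from precursors that seed the fetal liver, and they depend on signalling through the receptor encoded by Csf1r and on the lineage factor PU.1, encoded by Spi1. Liver X receptor alpha, encoded by Nr1h3, supports their identity, and surface proteins such as CLEC4F, TIM4 and VSIG4 distinguish them from monocytes that enter from the blood. In the embryo the liver is also the main site of blood formation, where macrophages stand among maturing red cells.

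All values below are relative signals: the processed signal of a probe divided by the 75th percentile of signal on the same array. A difference is the log2 ratio of group means ± SE, with 2 arrays a group. The SE of a gene uses array error pooled over all 4 groups, not only the 2 compared. A gene was called when its adjusted p in limma was under 0.05 and the difference was at least 2-fold. Differences compare 1 probe across arrays, and no probe is set against another. The 75th percentile was 132 to 171 on adult and 277 to 333 on fetal arrays, and 38.5% to 61.1% of probes were well above background. Duplicate arrays correlated across genes at r of 0.992 to 0.997, and the SD of the log2 difference within a pair was 0.43 for adult wild type and 0.24 to 0.30 for the other groups. Each group lay in 1 column of a single slide, so slide column and group cannot be told apart. Btg2 itself was at 1.12 and 1.20 in adult and 6.22 and 6.42 in fetal wild type and was not well above background on the 4 knockout arrays, at least 7.63-fold lower in adult and at least 98.0-fold lower in fetal liver. Of 10 hepatocyte markers all were above background on at least 1 array of both adult groups and of fetal wild type, while Cps1, Pck1, G6pc and Tdo2 were not in fetal knockout. The lowest log2 relative signal well above background differed too, at -4.59 and -4.30 in fetal wild type and -3.99 and -3.92 in fetal knockout. G6pc was at 0.0493 and 0.0283 in fetal wild type and 0.0457 and 0.033 in fetal knockout, so detection alone does not measure a difference.

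In adult liver the macrophage genes were higher in knockout across all 3 classes. Called higher were 31 of 39 members, namely 9 of 10 resident Kupffer genes, 17 of 22 pan-macrophage genes and 5 of 7 monocyte genes, and none was called lower. Over all 14562 genes tested, 4.96% were called higher and 2.53% lower; the members were chosen on this comparison, so nothing is read from the contrast. The median difference was 2.01 over the members, with 2.35 for resident Kupffer, 1.99 for pan-macrophage and 1.37 for monocyte genes, against -0.10 over all genes. With genes dim in 1 group set at their bounds the resident Kupffer median was 2.18 and that of all members 1.96. The 8 members not called were Nr1h3, Maf, Mrc1, Fcgr1, Laptm5, Spi1, Cx3cr1 and Itgam.

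**Figure D1:**
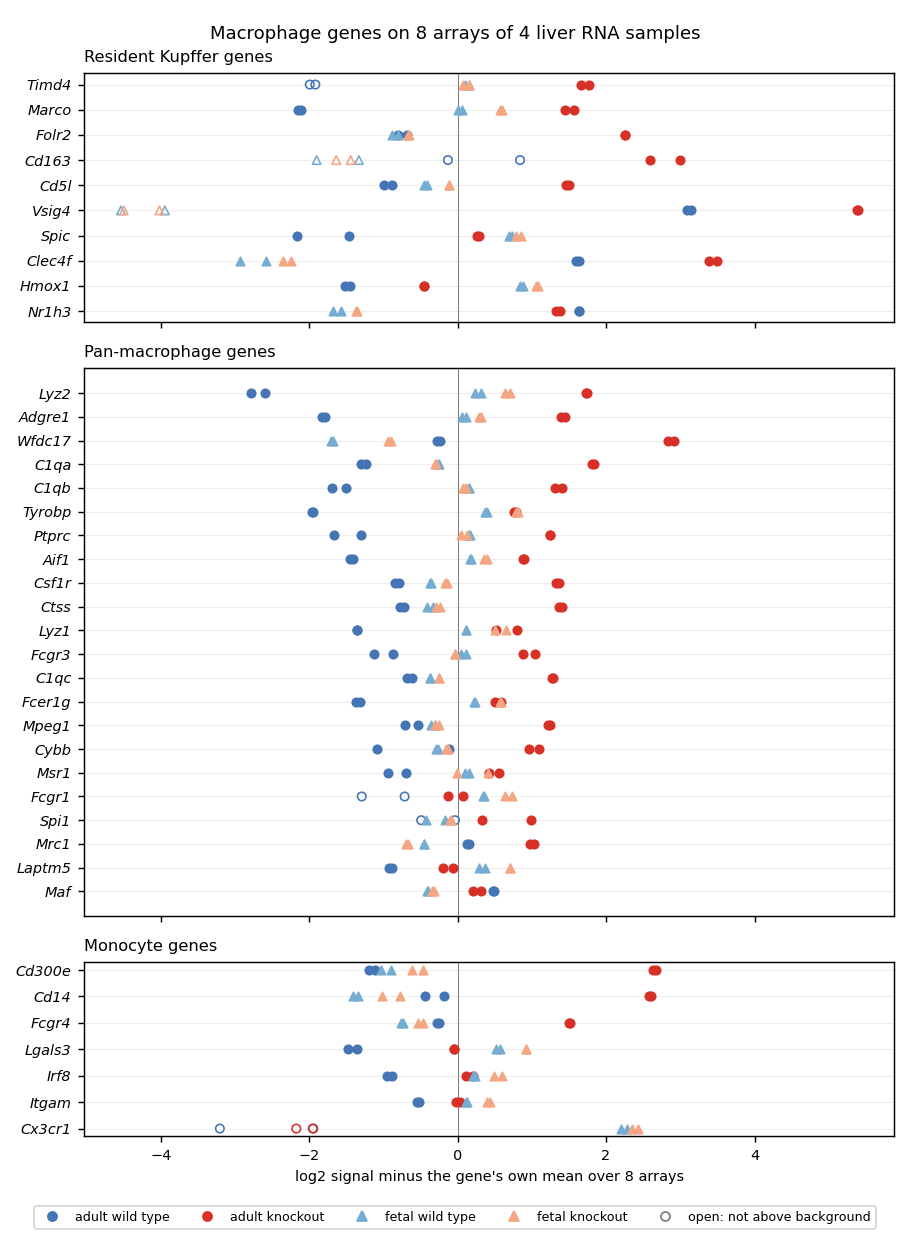
Signal of the 39 measured members on each of the 8 arrays, as log2 signal minus the gene's own mean over the arrays; colour and shape give the group, and open symbols mark a group in which the gene was above background on neither array. Adult knockout was the highest group for 27 members and adult wild type the lowest for 28.

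The surface markers of Kupffer identity were all higher in adult knockout. Clec4f, which encodes a C-type lectin found on Kupffer cells, was at 9.14 and 8.90 in adult wild type, 31.0 and 33.4 in adult knockout, 0.496 and 0.386 in fetal wild type and 0.623 and 0.579 in fetal knockout. The groups did not overlap, and both adult groups lay far above both fetal ones. Clec4f rose by 1.84 ± 0.11 in adult knockout. Timd4 encodes TIM4, a receptor for phosphatidylserine on dying cells. It was at 0.157 and 0.165 in adult wild type, not well above background, against 2.13 and 1.98 in adult knockout, so knockout was at least 11.5-fold higher. In fetal liver Timd4 was at 0.669 and 0.693 in wild type and 0.698 and 0.656 in knockout, and these overlapped. Vsig4, the complement receptor CRIg of Kupffer cells, was at 6.25 and 6.00 in adult wild type and 29.6 and 29.5 in adult knockout, a rise of 2.27 ± 0.21. On all 4 fetal arrays it was at 0.0305 to 0.046 and not well above background, so this defining marker of mature Kupffer cells was not measurable at embryonic day 13.5 in either genotype. Folr2, a folate receptor of tissue macrophages, rose by 3.00 ± 0.06, from 0.851 and 0.927 to 7.09 and 7.13, while its fetal values of 0.81 to 0.943 were close to those of adult wild type.

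Of the scavenger receptor genes Marco, Cd5l and Msr1 rose in adult knockout, and Mrc1 was not called. Marco, a scavenger receptor for bacteria and particles, was at 6.47 and 6.31 in adult wild type, 76.4 and 83.1 in adult knockout, 28.1 and 29.0 in fetal wild type and 42.3 and 41.6 in fetal knockout. No 2 groups overlapped, and the adult genotypes formed the lowest and the highest of the 4. The adult difference was 3.64 ± 0.04, or 12.5-fold. Cd5l encodes AIM, a scavenger-domain protein that Kupffer cells secrete. It was at 17.3 and 16.0, 90.6 and 88.0, 24.0 and 23.3, and 29.4 and 29.5 in the same order of groups, and rose by 2.42 ± 0.04 in adult knockout. Msr1, the class A scavenger receptor, rose by 1.31 ± 0.17 at low signal (0.212 to 0.597 on the adult arrays), and its call was lost with normexp background correction. Mrc1, the mannose receptor, which sinusoidal endothelial cells also carry, was at 5.72 and 5.83 in adult wild type and 10.3 and 10.7 in adult knockout. Those arrays did not overlap, but the difference of 0.86 ± 0.03 was under 2-fold.

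Cd163, Spic and Hmox1, which serve the uptake and breakdown of haem, all rose in adult knockout. Cd163, the receptor for haemoglobin bound to haptoglobin, was at 0.0399 and 0.0783 in adult wild type, 0.35 and 0.265 in adult knockout and between 0.0117 and 0.0174 on the fetal arrays. It was above background in adult knockout alone, at least 1.70-fold higher than in adult wild type, and its call was lost with normexp. Spic, a transcription factor that haem induces in red pulp and other iron-recycling macrophages, was at 0.423 and 0.689 in adult wild type, 2.27 and 2.32 in adult knockout, 3.07 and 3.14 in fetal wild type and 3.27 and 3.40 in fetal knockout. Adult wild type was the low group, and the rise in adult knockout was 2.09 ± 0.19. Hmox1, haem oxygenase, was at 4.69 and 4.48, 9.36 and 9.29, 22.8 and 23.6, and 26.5 and 27.1 in the same order. Its adult rise of 1.02 ± 0.03 lay just past 2-fold and its call was missed when array 2 of adult wild type was left out; a second Hmox1 probe gave 1.19. Of 12 other genes of haem and iron handling, such as Hp, Hpx, Slc48a1 and Tfrc, 0 were called in the adult comparison by limma although 10 had an unadjusted p under 0.05, as did 59.9% of all genes tested, and their median was -0.25.

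Of the other transcription factor genes among the members, Nr1h3, Maf, Spi1 and Irf8, Irf8 alone was called in adult liver. Nr1h3 was at 56.2 and 55.9 in adult wild type and 45.4 and 46.9 in adult knockout, a difference of -0.28 ± 0.04, and its second probe gave -0.17. It was the 1 resident Kupffer gene not called, and hepatocytes are known to express it too. Maf, a factor of macrophages that also acts in endothelium, was at 3.83 and 3.79 in adult wild type and 3.16 and 3.39 in adult knockout (-0.22 ± 0.04). For Spi1 the adult signals were 0.131 and 0.0955 in wild type and 0.267 and 0.168 in knockout, above background on only 1 of these 4 arrays, so its level in adult liver was not settled by this probe. Irf8, a factor of monocyte and dendritic cell development, was at 1.39 and 1.45 against 2.89 and 3.1 and rose by 1.08 ± 0.05, a call lost with normexp.

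Among pan-macrophage genes, Lyz2 had the largest adult difference of all members measured in both groups. It encodes the lysozyme of macrophages and was at 0.231 and 0.202 in adult wild type, 4.62 and 4.68 in adult knockout, 1.74 and 1.65 in fetal wild type and 2.27 and 2.18 in fetal knockout. The adult difference was 4.43 ± 0.07, or 21.5-fold, and adult wild type was the lowest group. Its neighbour Lyz1, the lysozyme of Paneth cells that some macrophages also express, was at 2.44 and 2.44, 8.94 and 10.8, 6.76 and 6.74, and 9.84 and 8.86 in the same order and rose by 2.01 ± 0.09 in adult knockout. Adult wild type was the lowest group for both genes, and the adult differences were 21.5-fold for Lyz2 and 4.04-fold for Lyz1. Whether either probe also binds the transcript of the other gene was not tested.

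The starts of these 2 genes lie on chromosome 10 and their upstream sequences are close copies: in the 250 bases before each start, 205 of 260 aligned columns were identical (78.8%). They are printed here as a description, and whether they bear on the signals of the 2 genes was not tested. The sequences are from RefSeq (GRCm38.p6), 5′ to 3′ on the gene's strand, at chr10:117292869-117293118 (minus strand) and chr10:117282273-117282522 (minus strand).
Lyz1: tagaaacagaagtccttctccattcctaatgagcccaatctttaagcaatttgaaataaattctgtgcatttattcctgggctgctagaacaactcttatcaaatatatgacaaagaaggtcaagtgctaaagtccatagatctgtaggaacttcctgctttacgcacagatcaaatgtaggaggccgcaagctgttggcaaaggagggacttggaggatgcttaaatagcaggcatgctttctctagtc
Lyz2: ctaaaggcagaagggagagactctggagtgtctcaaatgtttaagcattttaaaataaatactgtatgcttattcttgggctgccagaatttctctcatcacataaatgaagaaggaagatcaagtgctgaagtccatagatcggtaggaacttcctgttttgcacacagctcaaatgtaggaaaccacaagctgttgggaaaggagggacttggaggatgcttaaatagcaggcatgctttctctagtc

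Adgre1 and Csf1r, general genes of the lineage, both rose in adult knockout. Adgre1, which encodes the F4/80 antigen, was at 1.09 and 1.06 in adult wild type, 9.91 and 10.3 in adult knockout, 3.91 and 4.08 in fetal wild type and 4.67 and 4.59 in fetal knockout. The adult difference was 3.23 ± 0.04, and a second probe gave 3.56. Csf1r, the receptor for the macrophage growth factors CSF1 and IL-34, was at 13.8 and 13.3, 59.6 and 61.8, 18.6 and 18.5, and 21.6 and 21.2 in the same order and rose by 2.16 ± 0.03. Its other probes gave 3.65 and 0.55, so the sign held while the size of its change depended on the probe. Its ligand genes were not called: Csf1 differed by -0.28 and Il34 by 0.16. Of 8 tested genes of colony-stimulating factors and their receptors Csf2ra alone was called (1.02 ± 0.04), against 4.96% of all genes called higher.

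Complement and Fc receptor genes, which act in the uptake of antibody-coated and complement-coated particles, mostly rose. C1qa, a chain of C1q, was at 1.90 and 1.81 in adult wild type, 15.7 and 15.9 in adult knockout, 3.74 and 3.72 in fetal wild type and 3.63 and 3.62 in fetal knockout. Its adult rise was 3.09 ± 0.03, while the fetal groups differed by -0.04 ± 0.03. C1qb rose by 2.95 ± 0.06 and C1qc by 1.93 ± 0.03. The signalling adaptors Fcer1g (1.89 ± 0.03) and Tyrobp (2.73 ± 0.02), which carry signals of Fc and TREM receptors, were also called. Of the Fc gamma receptors, Fcgr3 rose by 1.96 ± 0.09 and Fcgr4 by 1.77 ± 0.05. Fcgr1 was at 0.137 and 0.205, not well above background, against 0.354 and 0.308; knockout was at least 1.75-fold higher and the gene was not called.

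The other pan-macrophage genes filled the range between these. Wfdc17, a secreted whey acidic protein, rose by 3.12 ± 0.04, from 3.17 and 3.25 to 27.3 and 28.8. Ptprc encodes CD45, which all white blood cells carry, and was at 0.229 and 0.178 in adult wild type, where 1 of 2 arrays was above background, against 1.35 and 1.34 in adult knockout (2.73 ± 0.13). In fetal liver Ptprc was at 0.636 and 0.626 in wild type and 0.617 and 0.581 in knockout. Aif1, the calcium-binding protein IBA1, rose by 2.32 ± 0.03, the lysosomal protease gene Ctss by 2.14 ± 0.04 and Mpeg1, a pore-forming protein of phagocytes, by 1.85 ± 0.05. Cybb, the NADPH oxidase subunit, rose by 1.62 ± 0.29 at signals of 0.0972 to 0.438, with 1 of 2 adult wild-type arrays above background, and was not called with normexp. Laptm5, a lysosomal membrane protein of blood cells, differed by 0.78 ± 0.07.

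The monocyte genes did not move as 1 block. Cd300e, an activating receptor of monocytes, was at 0.207 and 0.195 in adult wild type, 2.85 and 2.76 in adult knockout, 0.219 and 0.239 in fetal wild type and 0.292 and 0.323 in fetal knockout; adult knockout stood alone, 3.80 ± 0.11 above adult wild type. Cd14, the co-receptor for bacterial lipopolysaccharide, was at 0.57 and 0.676, 4.60 and 4.68, 0.289 and 0.305, and 0.449 and 0.381 in the same order, a rise of 2.90 ± 0.11. Lgals3, which encodes galectin-3, rose by 1.37 ± 0.04. Itgam, the CD11b integrin of monocytes and neutrophils, was at 2.20 and 2.25 in adult wild type and 3.28 and 3.18 in adult knockout, with a difference of 0.54 ± 0.04 that was under 2-fold. Cx3cr1, the fractalkine receptor, was at 0.0566 to 0.135 on the 4 adult arrays and not well above background on any of them, so this receptor of monocytes and of macrophage precursors was not detected in adult liver of either genotype. Its fetal values were 2.40 and 2.54 in wild type and 2.65 and 2.82 in knockout.

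**Figure D2:**
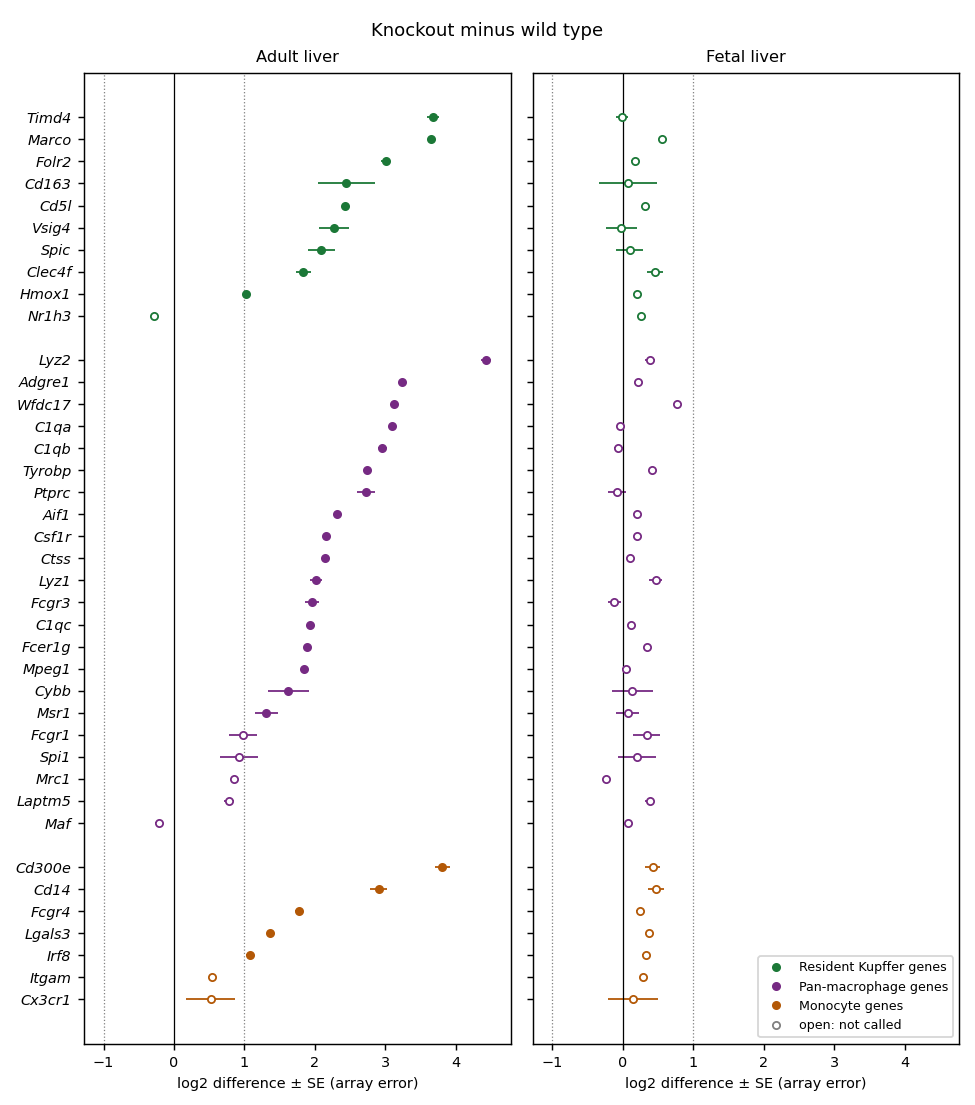
Knockout minus wild type for each measured member, as log2 difference ± SE of array error (2 arrays a group), in adult liver on the left and fetal liver on the right; filled points were called and dotted lines mark 2-fold. In adult liver 31 members are filled and lie to the right, while in fetal liver none is filled and the points lie between -0.23 and 0.77; values of genes dim in a group are fitted values, not bounds.

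In fetal liver the same genes differed little between genotypes. None of the 39 members was called higher or lower by limma, against 0.522% and 1.44% of all genes tested, and 24 members had an unadjusted p under 0.05, as did 35.5% of all genes. The median difference was 0.21, with 0.19 for resident Kupffer, 0.17 for pan-macrophage and 0.33 for monocyte genes, against 0.02 over all genes. The largest was Wfdc17, at 1.20 and 1.17 in wild type and 2.05 and 2.0 in knockout (0.77 ± 0.04, adjusted p = 0.00011). Next came Marco, higher by 0.56 ± 0.04 (adjusted p = 4e-04), and Cd14, higher by 0.48 ± 0.11 (adjusted p = 0.025), both with no overlap of the arrays.

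Small differences in the fetal pools mostly pointed upward. Both knockout arrays were above both wild-type arrays for 29 members (7 resident Kupffer, 15 pan-macrophage and 7 monocyte genes) and below them for 5, against 39.6% and 31.7% of all genes. At an adjusted p under 0.05 in limma and any size of difference, 21 members were higher (5 resident Kupffer, 10 pan-macrophage and 6 monocyte genes), against 13.9% of all genes, and 1 was lower, against 8.6%. This count was 0 of 39 with median scaling, where 0.81% of all genes passed, and 12 to 15 when any 1 fetal array was left out, 12 of them without the first knockout array. The signalling adaptor Tyrobp was higher by 0.42 ± 0.02 (adjusted p = 0.00019), Fcer1g by 0.35 ± 0.03 (adjusted p = 0.00099) and Lgals3 by 0.38 ± 0.04 (adjusted p = 0.0019). Itgam was at 3.51 and 3.49 in wild type and 4.35 and 4.22 in knockout (0.29 ± 0.04, adjusted p = 0.0025). Lyz2 (0.39 ± 0.07) and Lyz1 (0.47 ± 0.09) each had an adjusted p of 0.011.

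For some other members the difference was smaller, close to 0 or in the other direction. Mrc1 was the 1 member lower at that threshold, at 3.81 and 3.84 in fetal wild type and 3.30 and 3.22 in fetal knockout (-0.23 ± 0.03, adjusted p = 0.0036). The next lowest were Fcgr3 (-0.12 ± 0.09, adjusted p = 0.43) and Ptprc (-0.08 ± 0.13, adjusted p = 0.73). C1qa (-0.04 ± 0.03, adjusted p = 0.43) and C1qb (-0.06 ± 0.06, adjusted p = 0.56) were close to 0. Timd4 differed by -0.01 ± 0.09 and Spic by 0.10 ± 0.19, while Hmox1 was higher by 0.21 ± 0.03 (adjusted p = 0.005) although its second probe gave -0.30. Adgre1 and Csf1r were both higher by 0.21 (SE 0.04 and 0.03, adjusted p = 0.0089 and 0.0039 in limma). However, a second Adgre1 probe gave 0.07, and other Csf1r probes gave -0.03 and 0.05.

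Between stages, adult wild-type liver held less signal of most members than fetal wild-type liver. Called higher in adult were 6 of 39 (background 27.3%) and lower 19 (background 27.9%). The 4 resident Kupffer genes higher in adult wild type were Clec4f (4.37 ± 0.11), Vsig4 (at least 133-fold), Nr1h3 (3.26 ± 0.04) and Cd163. Cd163 was not well above background in either group, is given no size, and lost its call with quantile normalization and the value table. Timd4 (at least 3.81-fold, a call lost with normexp), Marco (-2.16 ± 0.04), Spic (-2.52 ± 0.19) and Hmox1 (-2.34 ± 0.03) were lower. Cd5l (-0.51) and Folr2 (0.09) were not called, and the median of the resident Kupffer genes was -0.21. Of 22 pan-macrophage genes 12 were lower in adult, led by Lyz2 (-2.97 ± 0.07) and Tyrobp (-2.34 ± 0.02), and Wfdc17 alone was higher (1.44 ± 0.04), a call lost with median scaling. Without the second adult wild-type array the calls of C1qa, Fcgr3 and Cd14 in this comparison were lost. The call of Cd14 was also lost with scaling to detected probes, median scaling and normexp. Those of Fcgr1, Fcgr3, Laptm5 and Ptprc were lost with normexp.

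In knockout liver, adult exceeded fetal for 23 members (background 25.8%) and was lower for 2, Hmox1 (-1.52 ± 0.03) and Cx3cr1 (background 27.8%). The count lower was 4 with scaling to detected probes and 6 with median scaling. Higher were 7 of 10 resident Kupffer genes, among them Vsig4 (at least 459-fold), Clec4f (5.74 ± 0.11), Folr2 (2.92 ± 0.06), Cd163 (at least 4.72-fold) and Timd4 (1.60 ± 0.09), 13 of 22 pan-macrophage and 3 of 7 monocyte genes. Among the pan-macrophage calls, those of Adgre1, Cybb, Fcgr3 and Lyz2 were lost with quantile, detected-probe and median scaling. They were also lost with normexp and with the value table. The call of Ptprc was lost with detected-probe scaling, median scaling and normexp, and that of C1qb with median scaling. Cx3cr1 was higher in fetal liver in both genotypes, at least 13.8-fold in wild type and at least 18-fold in knockout. Medians were 2.16 for resident Kupffer, 1.10 for pan-macrophage and -0.38 for monocyte genes in knockout; the last was 0.20 when all probes of a gene were averaged and 0.81 over members above background on all arrays. In wild type the pan-macrophage median was -1.04 and the monocyte median -0.65. Both stage comparisons share arrays with the knockout comparisons, and all their differences shift with the scaling: the median of all genes was -0.01 in wild type and -0.04 in knockout here but -0.64 and -0.52 with median scaling.

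**Figure D3:**
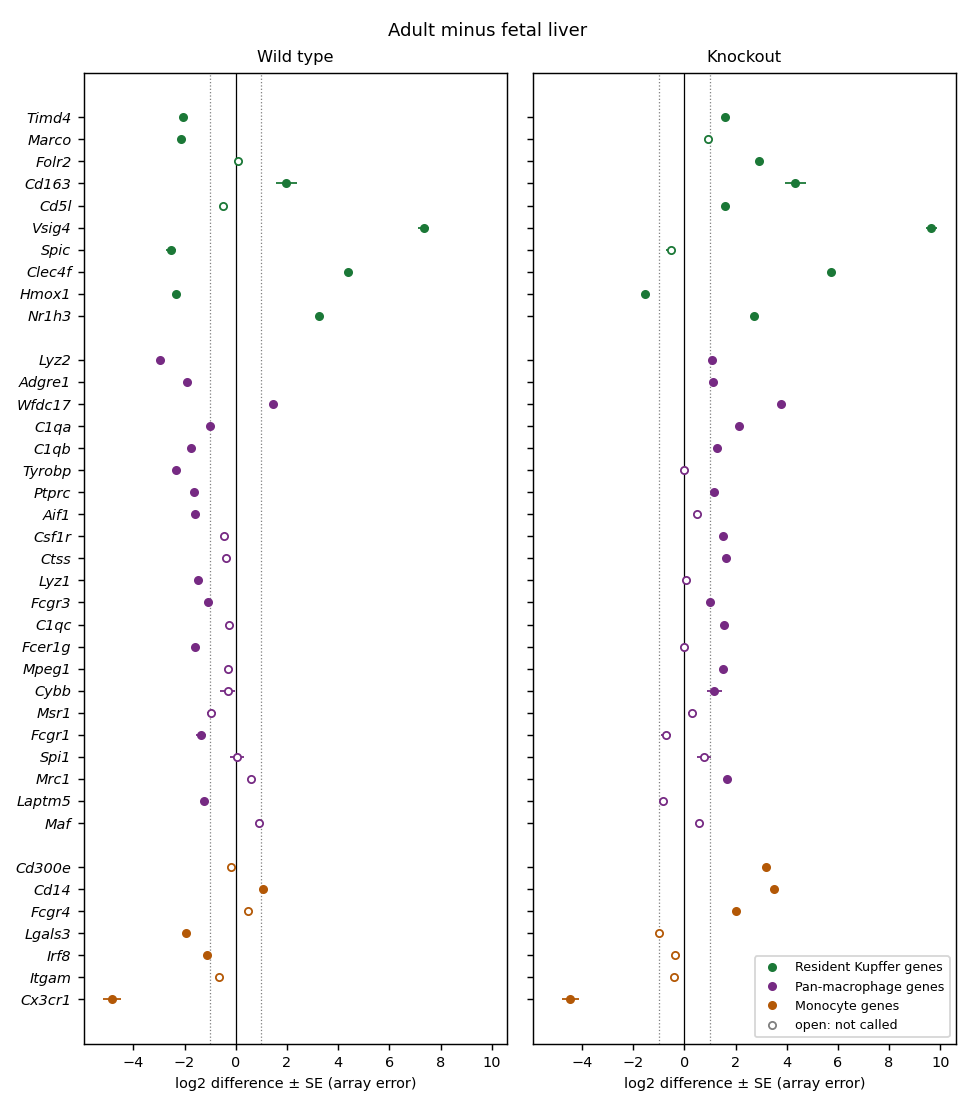
Adult minus fetal liver for each measured member, as log2 difference ± SE of array error (2 arrays a group), in wild type on the left and knockout on the right; filled points were called and dotted lines mark 2-fold. Most pan-macrophage points lie left of 0 in wild type and right of 0 in knockout, while Clec4f, Vsig4 and Nr1h3 lie to the right and Cx3cr1 and Hmox1 to the left in both; values of genes dim in a group (such as Vsig4, Cd163 and Cx3cr1) are fitted values, not bounds.

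Across the 4 groups, adult knockout was highest for 27 of 39 members, with no overlap for 26, and fetal knockout for 10. Adult wild type was highest for 2, Nr1h3 and Maf, and fetal wild type for none. The lowest group was adult wild type for 28 members, fetal wild type for 9 and fetal knockout for 2. Over all genes tested, adult knockout was the highest group for 20.1% and adult wild type the lowest for 23.3%. The order adult wild type, fetal wild type, fetal knockout, adult knockout held for Marco, Cd5l, Adgre1, Lyz2, C1qc, Aif1, Ctss and Cd300e. Neighbours in it did not overlap for these genes. Lyz1, Mpeg1, Msr1 and Cybb had the same order of means on the probes used, but some neighbouring groups overlapped. Csf1r had that order on the probe used, but on another of its probes adult wild type lay above fetal wild type by 1.39. For Spic, Hmox1, Fcgr1, Laptm5, Itgam, Irf8, Lgals3 and Cx3cr1, on the probes used, fetal knockout stood highest instead and the means of both fetal groups lay above adult knockout, although the arrays of adult knockout and fetal wild type overlapped for Irf8. Summed over the members, relative signal was 169 to 173 in adult wild type, 593 to 607 in adult knockout and, in fetal liver, 215 in wild type and 261 to 264 in knockout.

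Since many members rose together in adult knockout, the 250 bases before their starts were read for short motifs of factors known in macrophages. Promoter sequences were matched for 31 of 40 members in RefSeq (GRCm38.p6). The core GAGGAA, bound by PU.1, was present on either strand in 16 of 31 (51.6%), against 23.1% of 27025 promoters of the same length. The longer form GAGGAAGT, which contains that core, was present in 2 (6.45% against 2.44%). TGCTGA, a MAF half-site, was in 10 (32.3% against 15.8%), TTGCNNAA, a C/EBP motif, in 3 (9.68% against 9.55%), TATAAA in 4 (12.9% against 13.0%) and CACGTG, an E-box, in none (6.05% of all). These counts describe letters and not bound sites, and nothing about the factors is read from them. Of the members called higher in adult knockout, 5 that hold the core are shown, chosen after the matches were seen: 3 resident Kupffer genes and 2 chains of C1q. Capitals mark GAGGAA or its reverse complement, and each run is 5′ to 3′ on the gene's strand and ends at the base before the start. They lie at chrX:96293439-96293688 (minus strand), chr1:120505025-120505274 (minus strand), chr3:87357631-87357880 (plus strand), chr4:136886201-136886450 (minus strand) and chr4:136892915-136893164 (minus strand).
Vsig4: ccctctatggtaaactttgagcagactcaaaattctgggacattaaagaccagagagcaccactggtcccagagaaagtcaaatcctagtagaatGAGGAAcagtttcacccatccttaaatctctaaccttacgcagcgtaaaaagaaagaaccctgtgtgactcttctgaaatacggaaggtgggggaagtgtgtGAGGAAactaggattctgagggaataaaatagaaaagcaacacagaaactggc
Marco: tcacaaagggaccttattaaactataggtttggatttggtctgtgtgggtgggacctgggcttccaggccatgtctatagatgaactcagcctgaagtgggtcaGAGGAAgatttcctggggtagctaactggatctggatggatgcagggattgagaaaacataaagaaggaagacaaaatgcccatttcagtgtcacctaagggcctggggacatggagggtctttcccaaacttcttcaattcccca
Cd5l: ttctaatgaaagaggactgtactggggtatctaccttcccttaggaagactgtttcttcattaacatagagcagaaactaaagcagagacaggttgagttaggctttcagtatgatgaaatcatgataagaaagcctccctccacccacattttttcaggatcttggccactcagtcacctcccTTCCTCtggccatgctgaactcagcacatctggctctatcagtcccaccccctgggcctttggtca
C1qb: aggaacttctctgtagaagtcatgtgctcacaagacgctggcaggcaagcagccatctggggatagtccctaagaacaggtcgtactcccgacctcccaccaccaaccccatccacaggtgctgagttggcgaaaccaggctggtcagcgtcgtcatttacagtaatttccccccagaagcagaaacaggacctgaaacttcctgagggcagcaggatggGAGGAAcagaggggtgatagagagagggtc
C1qc: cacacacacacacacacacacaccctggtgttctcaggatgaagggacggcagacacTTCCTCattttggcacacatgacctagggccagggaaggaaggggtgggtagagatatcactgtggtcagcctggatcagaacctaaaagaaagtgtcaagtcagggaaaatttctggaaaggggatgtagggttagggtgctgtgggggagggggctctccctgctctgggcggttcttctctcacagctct

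In Vsig4 the first bases of the matches lie 155 and 53 bases before the start, in Marco 146, in Cd5l 66, in C1qb 30 and in C1qc 193. The matches thus stand at different distances, and C1qb and C1qc, neighbours on chromosome 4, do not share a position. Neither Lyz1 nor Lyz2, printed above, has a match in this window, although Lyz2 had the largest adult difference. Clec4f, Timd4, Folr2, Spic, Nr1h3 and Cd163 have none either, and Mrc1, which was not called in adult, has 3.

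Further genes of the lineage, taken from lists that hold no member, were also higher in adult knockout. These lists too were chosen with earlier results of these data known. They were read on the same arrays, so they give no independent support. Over all genes tested, 4.96% were called higher and 2.53% lower in adult knockout, with a median of -0.10. Of 12 further Kupffer genes 7 rose and 0 fell (median 1.22). Cd207, the lectin langerin, rose by 3.44 ± 0.45, and Slc11a1, a metal transporter of phagosomes, by 2.23 ± 0.05. Of 40 further macrophage genes 25 rose and 0 fell (median 1.46), with Cd53 at least 4.34-fold and Clec4a3 at least 4.45-fold higher. Trem2, a lipid receptor of macrophages, was the lowest at -0.85 and was not called. Of 16 genes for signals of the Kupffer niche Notch1 (1.80 ± 0.43) and Vcam1 (1.71 ± 0.03) rose and Id1, a target of BMP signals, fell (-1.04 ± 0.06); the median was 0.27. In fetal liver 0 genes of these 3 lists were called by limma, while 3 of 12, 22 of 40 and 10 of 16 had an unadjusted p under 0.05 (35.5% of all genes), and the medians were 0.02, 0.24 and -0.10.

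Lists of other cell types were read beside the members. Of all genes tested, 4.96% were called higher and 2.53% lower in adult knockout. Of 17 further monocyte genes 6 rose and 0 fell in adult knockout (median 0.39). Among them were Itgal (1.69 ± 0.10), Ear2 (1.60 ± 0.05), Treml4 (1.58 ± 0.13) and Gngt2 (1.51 ± 0.04), above background on all adult arrays. Ccr2, Chil3, Vcan and Clec4e were not well above background in either adult group, nor was the called F13a1. The summed signal was 99.5 to 109 in adult wild type and 97.7 to 98.5 in adult knockout. Most of that sum was Cebpb, which other liver cells also express; without it the sum was 16.5 in adult wild type and 31.7 to 32.3 in adult knockout. Of 9 dendritic and antigen-presentation genes 5 rose (median 1.05, or 0.63 with 1 dim gene at its bound). These were the antigen-presentation genes H2-Aa (2.35 ± 0.14), Cd74 (1.51 ± 0.08), H2-Ab1 (1.33 ± 0.03) and H2-Eb1 (1.05 ± 0.03), and Ccr7, dim in adult wild type. Zbtb46 (-0.01), Clec9a (-0.05) and Siglech (-0.38) were not called, and Itgax was not well above background in either adult group. The summed signal of the list was 88.4 to 103 in adult wild type and 108 to 119 in adult knockout. Without the brightest, Siglech, it was 23.4 to 23.9 and 57.7 to 58.0. Of 14 neutrophil genes S100a8 (1.71 ± 0.14) and S100a9 rose and Lcn2 fell (-1.63 ± 0.04). The neutrophil median was -0.24. The granule genes Ngp, Ltf, Retnlg and Mmp8 were not well above background in either adult group. Elane (-0.57) and Camp (-0.10) were above background on both arrays of both adult groups and were not called. The neutrophil sum was at most 11.2 in adult wild type and 7.97 to 8.02 in adult knockout. Without Lcn2 it was 5.37 to 5.45 and 6.11 to 6.23. Of 9 lymphocyte genes Gzma alone rose (1.34 ± 0.21; median 0.15; sum 45.5 to 47.4 and 30.6, or 8.57 to 8.80 and 7.90 to 8.25 without Cd4).

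Lists of other liver cells are read against the 4.96% of all genes called higher in adult knockout. Of 14 genes listed as sinusoidal endothelial, Clec1b (1.51 ± 0.04) and Tek (1.23 ± 0.13) were called higher and 0 lower. Kdr (-0.91 ± 0.08) and Lyve1 (-0.77 ± 0.14) had lower means in adult knockout, by less than 2-fold. Which cells gave the Clec1b signal was not tested. The endothelial median was 0.34, with sums of 135 to 137 in adult wild type and 164 to 171 in adult knockout. Without Clec4g the sums were 94.8 to 97.1 and 97.8 to 99.8. Of 10 stellate and fibroblast genes 3 rose, led by Acta2 (1.71 ± 0.03) and Col3a1 (1.66 ± 0.02), with a median of 0.55 and sums of 122 to 124 and 98.3 to 104. Most of the stellate sum was Dcn, and without it the sums were 8.11 to 8.26 in adult wild type and 14.2 to 14.5 in adult knockout. By limma 0 of 10 hepatocyte and 0 of 10 erythroid genes were called in adult, while 6 and 4 had an unadjusted p under 0.05 (59.9% of all genes), with medians of -0.19 and -0.20, and sums of 6072 to 6169 against 5210 to 5217 and 32.6 to 33.9 against 45.9 to 46.1. Without Alas2 the erythroid sums were 1.99 to 2.17 and 2.13 to 2.20. The part that any of these cell types plays in the members' differences was not tested. In fetal liver 0 genes of the monocyte, dendritic, neutrophil, lymphocyte, endothelial, stellate, erythroid and colony-stimulating factor lists were called by limma, while 9, 4, 6, 4, 6, 5, 4 and 5 of 17, 9, 14, 9, 14, 10, 10 and 8 had an unadjusted p under 0.05 (35.5% of all genes). Among the hepatocyte genes Pck1, an enzyme of gluconeogenesis, was at least 1.26-fold lower there (adjusted p = 0.0058). Hamp, which encodes hepcidin, was the 1 called member of the haem and iron list there, higher by 1.91 ± 0.06 (adjusted p = 1.7e-05).

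**Figure D4:**
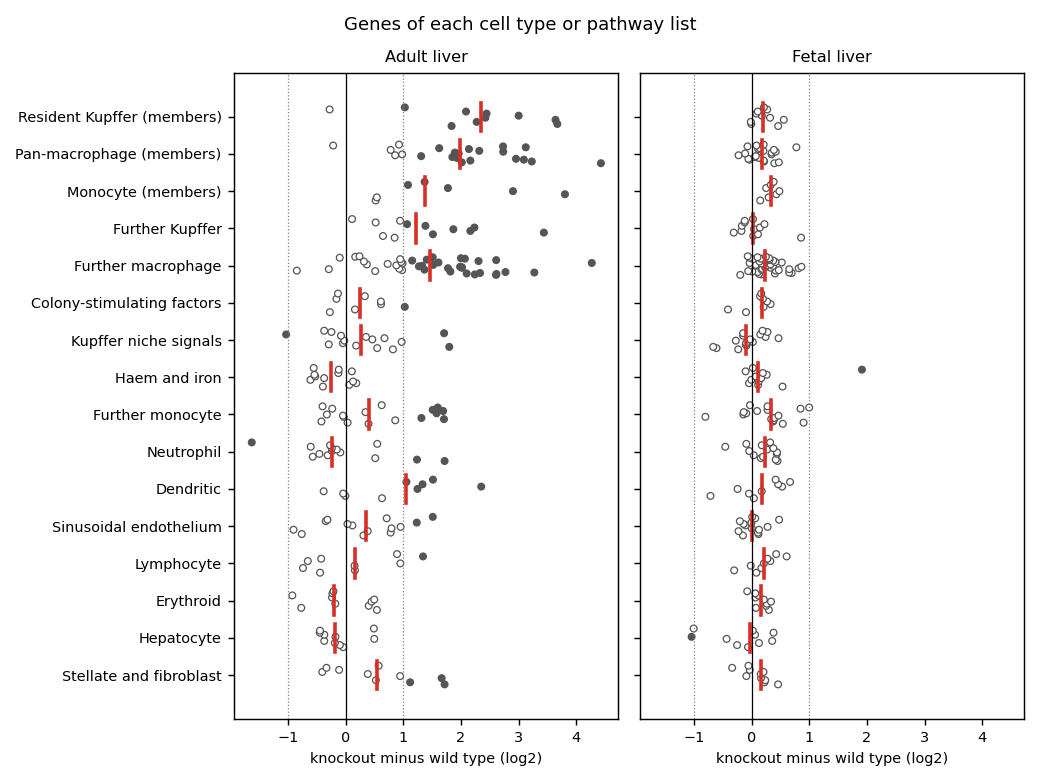
Knockout minus wild type (log2) for every tested gene of the 3 member classes and of 13 further lists, in adult liver on the left and fetal liver on the right; filled points were called, red bars are list medians and dotted lines mark 2-fold. In adult liver the member classes and the further Kupffer, further macrophage and dendritic lists have medians above 1 (0.63 for the dendritic list with 1 dim gene at its bound), and in fetal liver every list median lies between -0.10 and 0.34.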

How the data were processed

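Members and gene lists were chosen with earlier results of these data known. Agilent single-colour scanner output was deposited for 8 arrays. Per the file headers it was made with Agilent Feature Extraction 10.7.3.1, and its processed signal, median signal and background are intensities on a linear scale. The deposited value table of the series holds linear intensity with the same median (18.1) and 75th percentile (185) in each array, correlating on the log2 scale with the processed signal at r of 0.995 to 0.999; its genes are not centred, its direction is that of the scanner signal, and its normalization is unknown, so it served as an alternative only.

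From the deposited intensities, log2 processed signal minus each array's 75th percentile was computed. Control spots and outlier spots (92 to 188 an array) were left out; no spot was saturated. Probes were named through accessions in the RefSeq table of GRCm38.p6 (26762 named, 28919 not). Each gene took its named probe with the highest mean signal, and a gene was tested when well above background on both arrays of a group (14562 of 20284). limma 3.58.1 in R 4.3.3 (lmFit, eBayes with an intensity trend) fitted all 8 arrays as 4 groups; p was adjusted by Benjamini and Hochberg over the genes tested. The code was tested on simulated data. Where neither array of a group was well above background, "at least N-fold" compares the bright mean with the higher of the dim signal and the lowest signal well above background. Per-array values are given for 21 representatives of class and role and for the 3 largest and 3 smallest differences of each knockout comparison; of each further list, the 2 largest called genes, of which 1 is not reported here. Alternatives were other scalings, normexp (offset 50), the value table, filters, the probe rule, the variance model, the slide row as a block, the arrays in the fit and leaving out each array. Counts in the fetal pools at any size of difference were added after the data were seen.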

Additional observations from a re-analysis of the deposited data

Results flagged for a closer look

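For 7 members every adult array moved one way between genotypes and every fetal array the other, so the adult difference minus the fetal difference is given for each. It was 3.13 for C1qa, 3.01 for C1qb, 2.81 for Ptprc, 2.08 for Fcgr3 and 1.09 for Mrc1, which were higher in adult knockout and lower in fetal knockout than in the matching wild type. It was -0.55 for Nr1h3 and -0.30 for Maf, which were lower in adult knockout and higher in fetal knockout. The difference between the stages was not tested. The fetal part is small in all 7: -0.04 for C1qa, -0.06 for C1qb, -0.08 for Ptprc, -0.12 for Fcgr3, -0.23 for Mrc1, 0.27 for Nr1h3 and 0.08 for Maf.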

How the results depend on the processing

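No called difference of the 4 comparisons reversed under the alternatives run. Of 31 adult calls, 27 remained with normexp (Cd163, Cybb, Irf8 and Msr1 were lost), 26 with genes above background on all arrays, and 30 without the second adult wild-type array (Hmox1 was lost); Fcgr1 and Spi1 were gained with quantile, detected-probe and median scaling and with the value table, Mrc1 with median scaling, and Spi1, Fcgr1 or Cx3cr1 without some single adult arrays. Of 25 stage calls in each genotype, 19 to 25 remained. The fetal counts at 2-fold stayed at 0. Members lower in adult than fetal knockout numbered 2, but 4 with scaling to detected probes, 6 with median scaling and 1 over genes above background on all arrays. Fetal members higher at any size numbered 21, but 0 with median scaling (limma) and 12 to 15 without 1 fetal array; the cause was not tested. The labels give no replicate numbers; with the slide row as replicate block the adult count was 31, the fetal count 0, and the fetal count at any size 22. The number of arrays, 2 of 1 RNA sample in each group, limits all precision.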
